A study of Mus musculus with 24 samples.

Results

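The comparison described here is that of livers after 1 week on a steatohepatitis (NASH) diet with livers after 1 week on the control diet, measured for mature miRNAs on 1-colour Agilent arrays. The NASH mice were male C57BL/6NJcl animals given a choline-deficient high-fat diet, abbreviated CDAHFD in the labels, with 0.1% methionine. The control mice were of the same sex and strain and ate CE-2, a solid diet from another supplier, so the separate components of the 2 diets cannot be told apart. Purchase was at 5 weeks of age, 1 week of acclimatization followed, and the mice were 7 weeks old when the liver was removed; 100 ng of liver RNA was labelled for each array. There were 2 NASH arrays and 2 control arrays, 4 of the 24 arrays of a study that also covered weeks 2 and 6 and serum. The labels do not say whether 2 arrays of 1 diet stand for 2 mice, so the p-values measure the spread between arrays, which may be technical.

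The miRNAs described were those that the scanner software called detected on at least 2 of these 4 arrays. That rule gave 349 of the 1881 miRNAs on the array. Of these, 264 were detected on all 4 arrays, 43 on both NASH arrays and neither control array, 28 on both NASH arrays and 1 control array, 12 on 1 array of each diet, and 2 on 1 NASH array and both control arrays. No miRNA was detected on both control arrays and neither NASH array.

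MicroRNAs are short RNAs that guide Argonaute proteins to messenger RNAs, mainly through pairing of the seed, bases 2 to 8 from the 5′ end, and lower the stability and translation of those messengers. In the liver a few of them, miR-122 above all, are made in great amount by hepatocytes, while others come from the leukocytes, stellate cells, endothelium and bile ducts of the same tissue. A diet short of choline and methionine limits the export of fat from hepatocytes as lipoprotein, and fat, cell injury, inflammation and fibrosis then develop. Because whole liver was profiled, fewer cells of a type and less of a miRNA per cell cannot be told apart in any value below.

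The sequences of the miRNAs on which the results turn are given next, with the seed in capitals, from RefSeq (GRCm38.p6). The first set holds miRNAs that were higher in NASH livers and are known from damaged cells, leukocytes and stellate cells.
miR-34a-5p: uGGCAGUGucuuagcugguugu
miR-342-3p: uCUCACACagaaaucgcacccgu
miR-223-3p: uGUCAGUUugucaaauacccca
miR-155-5p: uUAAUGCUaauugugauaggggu
miR-181a-5p: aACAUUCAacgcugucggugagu
miR-214-3p: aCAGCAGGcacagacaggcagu
miR-15b-5p: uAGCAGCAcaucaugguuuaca
The second set shows a pair from 1 cluster that shares a seed and moved in opposite directions.
miR-132-3p: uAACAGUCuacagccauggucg
miR-212-3p: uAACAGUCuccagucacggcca
The third set holds miRNAs that were lower in NASH livers and are in a list of hepatocyte-enriched miRNAs or in the miR-30 family.
miR-194-5p: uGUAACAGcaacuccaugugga
miR-22-3p: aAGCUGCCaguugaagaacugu
miR-193a-3p: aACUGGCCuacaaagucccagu
miR-193a-5p: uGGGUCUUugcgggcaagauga
miR-455-3p: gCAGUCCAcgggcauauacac
miR-30c-5p: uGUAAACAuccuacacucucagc
The fourth set holds 3 bright miRNAs that were lower in NASH livers and share the run AUCCCA.
miR-5100: uCGAAUCCcagcggugccucu
miR-3968: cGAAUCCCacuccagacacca
miR-3963: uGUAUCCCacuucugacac

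On GRCm38.p6 miR-34a-5p lies at chr4:150068473-150068494 on the plus strand, within no annotated gene other than its own. Within the Evl gene lies miR-342-3p, at chr12:108658680-108658702 on the plus strand, and within Mir155hg lies miR-155-5p, at chr16:84714143-84714165 on the plus strand. miR-214-3p was placed at chr1:162223438-162223459 on the plus strand, inside Dnm3 and its opposite-strand transcript Dnm3os. The pair miR-132-3p and miR-212-3p lies at chr11:75173723-75173744 and chr11:75173443-75173464 on the plus strand, with starts 280 bases apart. Of the 20 miRNAs called higher that matched a RefSeq sequence, 16 (80.0%) lay inside an annotated protein-coding or long non-coding gene, against 11 of 18 (61.1%) of those called lower and 225 of 301 (74.8%) of all members with a sequence. Their median GC content was 51.1% and 48.7%, against 50% of all members with a sequence.

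Values below are scaled signals, the intensity of a miRNA's brightest probe divided by the 75th percentile of its own array, so that 1 stands for that percentile. Scaled signals under a floor of 0.0225 were set to it, and differences are log2 values, NASH minus control, given with a standard error (SE) from a limma fit to all 12 liver arrays. A miRNA was called higher or lower where the Benjamini-Hochberg adjusted p of that fit, taken over all 388 miRNAs tested in liver, was below 0.05. Before scaling, the 75th percentile was 868 and 671 on the NASH arrays and 484 and 596 on the control arrays, a difference of 0.51 on the log2 scale, while the spike-in controls differed by 0.15. NASH arrays detected 373 and 337 miRNAs and control arrays 269 and 307, and the two-sided exact permutation p of 0.333 was the smallest that 2 arrays against 2 allow. The diet cannot be told apart from the column of the slide, since the NASH arrays lay in column 4 and the control arrays in column 3 of slide 2, which held all 4. The hepatocyte markers miR-122-5p, miR-192-5p, miR-194-5p and miR-148a-3p were detected on all 4 arrays. Of the muscle markers, miR-1a-3p, miR-133a-3p and miR-133b-3p were each detected on 1 NASH array and no control array, and miR-206-3p and miR-208a-3p on none, as were the neural miR-124-3p and miR-9-5p, and the pancreatic miR-375-3p, miR-216a-5p and miR-217-5p.

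After 1 week of diet, 45 miRNAs were called, all of them among the 349. The 24 called higher were led by miR-467b-3p, miR-744-3p, the p53 target miR-34a-5p, the lymphocyte miR-342-3p and the myeloid miR-223-3p, with differences between 0.36 and 3.09. The 21 called lower were led by miR-5100, miR-6412 and, from a list of hepatocyte-enriched miRNAs, miR-455-3p, miR-22-3p and miR-193a-5p. The falls of the 21 lay between 0.27 and 0.94. Of the 24, 11 had both control arrays at the floor, and of the 21, 4 had both NASH arrays at the floor, miR-6412 among them. Calls of higher made up 6.19% of the 388 tested, calls of lower 5.41%, and both together 11.6%. A further 304 members were not called, and 94 members in all had an unadjusted p under 0.05. Higher calls were thus larger in size than lower ones, with medians of 0.97 and -0.67, and 11 calls exceeded a 2-fold difference.

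These calls are relative to the array's own bright probes, and their number depends on that choice. With no scaling between arrays 0 miRNAs were called lower and 14 higher by the same limma fit, with 75 of either direction at an unadjusted p under 0.05, and with the spike-ins as the scale 2 were called lower and 21 higher. Of the 24 called higher all kept their sign under each of 5 other scalings, and of the 21 called lower 16 did. With normexp background correction the balance was the other way, since 13 of the 24 called higher kept their sign and 5 of them were still called, while all 21 called lower kept theirs and 9 were still called. That setting adds an offset of 50 to the intensity of every spot before scaling. Such an offset by itself shrinks the log2 differences of dim miRNAs, and its part in the lost signs was not tested. Leaving out 1 of the 4 arrays at a time reduced the 45 calls to between 13 and 26, and 3 higher (miR-34a-5p, miR-342-3p and miR-132-3p) and 8 lower (miR-5100, miR-6412, miR-193a-5p, miR-3963, miR-3968, miR-1948-3p, miR-212-3p and miR-193a-3p) passed in all 4 cases. Among those that passed, miR-132-3p had both control arrays at the floor, and miR-6412 and miR-1948-3p both NASH arrays. Values set to the floor carry no spread of their own, so passing says little for these 3. With the floor at 2 times its value the difference was 0 for them and for miR-193a-5p. The fit to the 4 week 1 arrays alone still called 5 of the 24 and 4 of the 21, and miR-34a-5p, miR-342-3p, miR-223-3p and miR-122-5p were not among them. Among 204 members above the floor on all 4 arrays, the median size of the diet difference was 0.33, against a median gap of 0.15 between the NASH arrays and 0.18 between the control arrays. Of these 204, 53 had both NASH arrays above both control arrays and 73 had them below, so a lack of overlap was common among members.

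**Figure D1:**
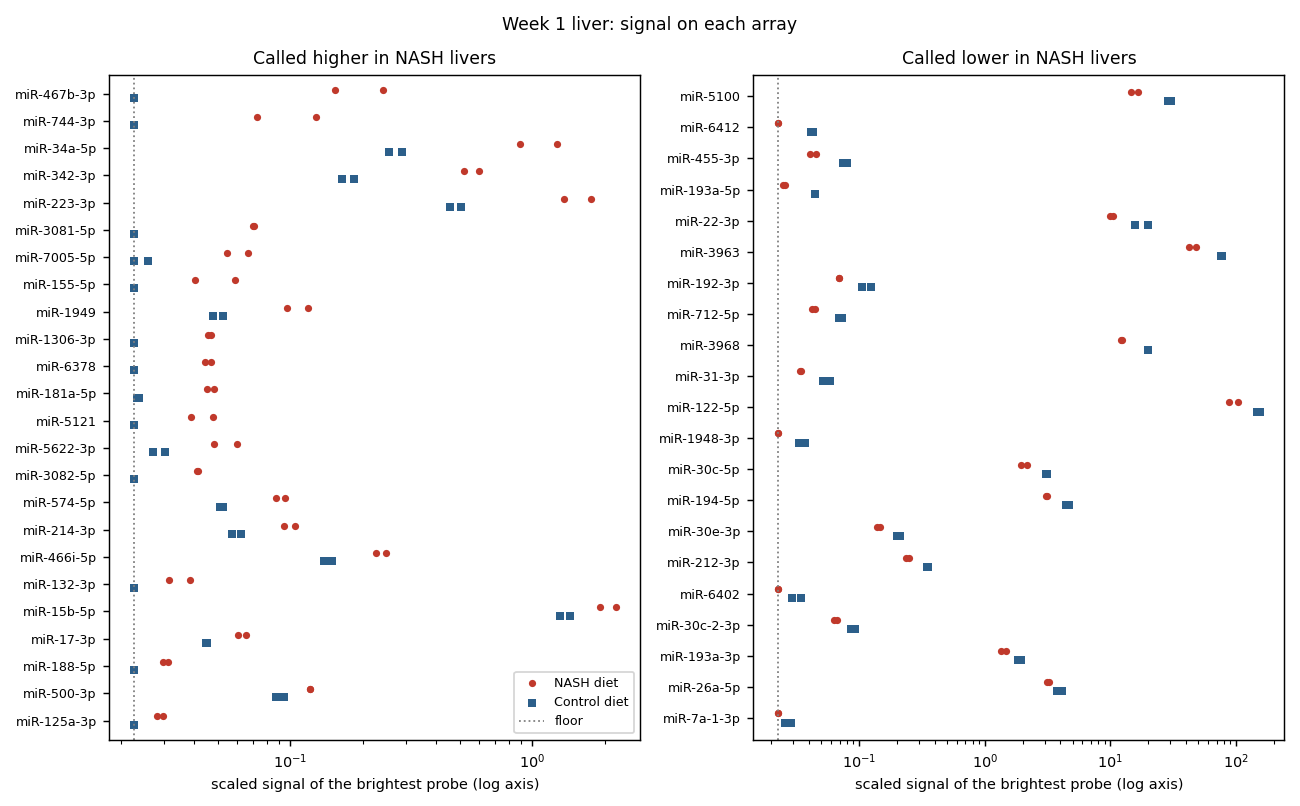
Scaled signal of the brightest probe (log axis) on each array for the 24 miRNAs called higher (left) and the 21 called lower (right) in NASH livers at week 1. Red circles are the 2 NASH arrays, blue squares the 2 control arrays and the dotted line the floor of 0.0225. For every miRNA shown the arrays of the diets do not overlap. Of all 349 members, 80 (22.9%) had the NASH arrays above without overlap and 84 (24.1%) the control arrays above. Both control arrays were at the floor for 11 of those called higher, and both NASH arrays for 4 of those called lower.

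The largest of the higher differences with no array at the floor was that of miR-34a-5p, a miRNA that p53 switches on and that represses Sirt1. Its scaled signal was 1.27 and 0.885 on the NASH arrays, against 0.288 and 0.255 on the control arrays. Both NASH arrays lay above both control arrays, and the difference was 1.97 (SE 0.20), a 3.91-fold higher level (limma, adjusted p = 0.00183). Among the alternatives that kept all 4 week 1 arrays, the call was lost only in the fit to those 4 arrays alone (limma, adjusted p = 0.0898). miR-34a-5p was the sole detected member of the 7 in the miR-34 list, since miR-34a-3p, both arms of miR-34b and miR-34c, and miR-449a-5p were not detected on 2 arrays.

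Of 12 detected members of the immune cell list, 4 were called higher and 1 lower, against 6.19% and 5.41% of all 388 miRNAs tested. The other 7 were not called, and the list's median difference was 0.65 against 0 over all tested. This and the other lists were written with earlier results of these data known, so the shares over all tested are not an independent baseline for them. The called ones were miR-342-3p, which lies in the Evl gene and is abundant in lymphocytes, miR-223-3p of granulocytes and other myeloid cells, miR-155-5p, which NF-kB induces in activated lymphocytes and macrophages, and miR-132-3p, a CREB-induced miRNA, and the 1 called lower was miR-212-3p. The list's summed scaled signal was 4.92 and 4.24 on the NASH arrays and 2.15 and 2.10 on the control arrays. The 4 calls of higher became 0 with the 75th percentile over all probes, and miR-342-3p alone was called without scaling and on the spike-in scale. How far the number of leukocytes in the tissue bears on this was not tested.

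For miR-342-3p the NASH arrays read 0.6 and 0.52 and the control arrays 0.184 and 0.163. The diets were clearly apart, by 1.69 (SE 0.17), or 3.22-fold (limma, adjusted p = 0.00183). miR-223-3p had scaled signals of 1.74 and 1.36 in NASH livers and of 0.506 and 0.457 in control livers. Its 3.20-fold higher level (difference 1.68, SE 0.32) passed with a limma adjusted p of 0.0197, and missed the threshold whenever any of the 4 arrays was left out. miR-155-5p was detected on both NASH arrays, at 0.0589 and 0.0404, and on neither control array. Under the reported processing it was at least 2.08-fold higher in NASH livers (limma, adjusted p = 0.00892, with both control arrays at the floor). The control level in that bound is the higher of the miRNA's own signal and the lowest signal well above background on each control array. With normexp the difference of miR-155-5p was 0.04 and with the floor at 2 times its value 0.19, and it was called under neither.

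Among the members of the immune list that did not pass, both arms of miR-142a, a miRNA of all blood cell lineages, had large differences. Scaled signals of miR-142a-3p were 1.47 and 1.31 in NASH livers and 0.529 and 0.556 in control livers. Although the diets did not overlap, the difference of 1.35 (SE 0.42) had an adjusted p of 0.0972 in the limma fit, whose spread comes from all 6 liver groups. The difference was 1.55 (SE 0.72) for miR-142a-5p, 0.66 (SE 0.20) for miR-146a-5p, which dampens NF-kB signalling, and 0.40 (SE 0.17) for the lymphocyte miR-150-5p. miR-511-3p, from an intron of the macrophage gene Mrc1, read 0.181 and 0.184 on the NASH arrays and 0.184 and 0.178 on the control arrays, a difference of 0.01 (SE 0.21).

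miR-132-3p and miR-212-3p come from 1 primary transcript and share the seed AACAGUC, printed above. Scaled signals of miR-132-3p were 0.0386 and 0.0315 in NASH livers, against the floor on both control arrays, only 1 of which detected it. That is a difference of 0.63 (SE 0.08, limma adjusted p = 0.00651), which the floor can understate. miR-212-3p had 0.238 and 0.249 in NASH livers and 0.346 and 0.351 in control livers. It was lower in NASH livers by a 1.43-fold ratio (difference -0.52, SE 0.04, limma adjusted p = 0.000525), so that the neighbours were called in opposite directions. Without scaling the fall of miR-212-3p came to -0.01 and was not called, and with normexp background correction miR-132-3p stood at -0.08.

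The largest differences in the whole comparison were in weakly measured miRNAs. miR-467b-3p, from the mouse-specific cluster in an intron of Sfmbt2, had 0.153 and 0.240 in NASH livers and lay at the floor on both control arrays, 1 of which detected it. The difference of 3.09 (SE 0.42, limma adjusted p = 0.00686) therefore rests on the floor, and it was 0.95 after normexp correction. miR-744-3p read 0.0725 and 0.127 in NASH livers with both control arrays at the floor, a difference of 2.09 (SE 0.43, limma adjusted p = 0.0241). A list of miRNAs named miR-297, miR-466, miR-467 and miR-669, the names found in that cluster, had 8 detected members, of which miR-467b-3p and miR-466i-5p were called higher and 6 were not called, with a median difference of 0. The list is one of names and not of the cluster, since RefSeq places miR-466i-3p in Cdk13, miR-467f in Fxr2, miR-466q in Tnik and miR-669n in Slc30a7. miR-466i-5p had scaled signals of 0.225 and 0.248 in NASH livers and 0.137 and 0.149 in control livers, a difference of 0.73 (SE 0.17, limma adjusted p = 0.0438).

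Other calls of higher included miR-181a-5p, which sets signalling thresholds in developing T cells, and miR-15b-5p, which shares a seed with the cell cycle inhibitor miR-16. miR-181a-5p had 0.0483 and 0.0451 in NASH livers and 0.0238 and 0.0233 in control livers (difference 0.99, SE 0.14, limma adjusted p = 0.00837). With normexp its difference was -0.084, and with the floor at 2 times its value 0.05, and it was called under neither. Its near-identical relative miR-181c-5p, 1 base edit away, had a difference of 0.09 and was not called. miR-15b-5p had 2.22 and 1.90 in NASH livers and 1.43 and 1.30 in control livers (difference 0.59, SE 0.12, limma adjusted p = 0.0230). This miRNA was also called on the spike-in scale and with normexp. It was not called with the 75th percentile over all probes, without scaling, after quantile normalization or with the scanner software's total signal. It was the only one called of the 6 detected miRNAs of the miR-15 and miR-16 list, whose median difference was 0.20, against 6.19% called higher of all 388 tested. The remaining calls of higher were miR-3081-5p, miR-7005-5p, miR-1949, miR-1306-3p, miR-6378, miR-5121, miR-5622-3p, miR-3082-5p, miR-574-5p, miR-17-3p, miR-188-5p, miR-500-3p and miR-125a-3p, between 0.36 and 1.64.

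A detected level on both NASH arrays and on neither control array was found for 43 miRNAs, and 12 of these had a NASH signal bright enough to give a fold bound. Of those called, miR-3081-5p was at least 2.99-fold, miR-188-5p at least 1.30-fold and miR-125a-3p at least 1.23-fold higher in NASH livers. With normexp their differences were 0.19, -0.084 and -0.087, and none of them was called. Bounds among those not called were at least 2.71-fold for miR-1188-3p, 2.61-fold for miR-7080-5p and 1.43-fold for miR-379-5p, with limma adjusted p of 0.241, 0.362 and 0.354. The NASH arrays were the brighter ones at week 1, and the part of that in these detections was not tested.

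Hepatocyte miRNAs moved the other way. Of 14 detected members of the hepatocyte list 7 were called lower, against 5.41% of all 388 tested, none higher and 7 not. The list's median was -0.62, against 0 over all 388 tested and -0.04 over the 204 members above the floor on all 4 arrays. Like the immune list, it was written with earlier results of these data known, so these comparisons are descriptive only. The called ones were miR-122-5p, miR-194-5p, miR-192-3p, miR-22-3p, miR-455-3p and both arms of miR-193a, and 13 of the 14 differences were negative, against 10 of 14 without scaling. Summed scaled signals of the list were 119 and 137 in NASH livers and 206 and 198 in control livers. With no scaling between arrays the list's median was -0.11, with the spike-in scale -0.26, and 0 members were called under either, so the level of these miRNAs relative to the bright probes of the array is what the calls describe.

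miR-122-5p, which dominates the hepatocyte miRNA pool and is a regulator of cholesterol and fatty acid metabolism, had scaled signals of 87.1 and 104 in NASH livers and 156 and 148 in control livers. The NASH arrays lay below the control arrays by a ratio of 1.59 (difference -0.67, SE 0.09, limma adjusted p = 0.00741). Its other arm, miR-122-3p, stood at -0.70 (SE 0.27) and was not called. miR-194-5p, transcribed together with miR-192, read 3.09 and 3.14 in NASH livers and 4.41 and 4.73 in control livers (difference -0.55, SE 0.11, limma adjusted p = 0.0230). Its partner miR-192-5p had 12.3 and 12.5 against 17.7 and 19.6, again without overlap, and a difference of -0.59 (SE 0.23) that was not called (limma adjusted p = 0.177).

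Scaled signals of miR-22-3p were 9.84 and 10.5 in NASH livers and 19.8 and 15.7 in control livers. The lower level, by a ratio of 1.74, was called (difference -0.80, SE 0.15, limma adjusted p = 0.0197). Both arms of miR-193a were called. Its 3p arm had 1.35 and 1.47 in NASH livers and 1.83 and 1.94 in control livers (difference -0.42, SE 0.06, limma adjusted p = 0.00686). The 5p arm had 0.0247 and 0.0260 in NASH livers and 0.0449 and 0.0450 in control livers (difference -0.83, SE 0.04, limma adjusted p = 0.000133). Its NASH values lay just above the floor of 0.0225. The difference of this arm was 0 with the floor at 2 times its value and -0.37 with normexp, and it was called under neither. Nor was it called with all probes, without scaling or on the spike-in scale. miR-193b-3p, which has the same seed as miR-193a-3p, differed by 0.02 close to the floor. Hepatocyte members that were not called included miR-365-3p (-0.41, SE 0.12), miR-148a-3p (-0.29, SE 0.21) and miR-802-5p (0.40, SE 0.53), the only positive one.

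Arms could be paired by name for 38 hairpins with both arms detected, and miR-193a was the 1 of these with both arms called. In 24 of them both arms had a difference other than 0, and in 22 of them both arms had the same sign. In 10 of the 38, 1 arm alone was called, among them miR-31, where miR-31-3p (-0.68) passed and miR-31-5p (-0.69, limma adjusted p = 0.0522) missed the threshold. miR-30c-5p and miR-30c-2-3p, which cannot be paired by name, lie 40 bases apart on chromosome 1 and were both called lower.

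Calls of lower outside the lists included miR-5100, miR-3963 and miR-3968, which are among the brightest signals of the control arrays. miR-5100 had scaled signals of 14.5 and 16.6 in NASH livers and 28.8 and 30.6 in control livers. Its 1.91-fold lower level was the deepest fall among the calls (difference -0.94, SE 0.07, limma adjusted p = 0.000525). For miR-3963 the signals were 42.1 and 47.7 in NASH livers and 77.6 and 75.5 in control livers (difference -0.77, SE 0.09, limma adjusted p = 0.00389). miR-3968 followed with 12.1 and 12.4 in NASH livers and 20 and 19.8 in control livers (difference -0.70, SE 0.04, limma adjusted p = 0.000133). None of the 3 was called with the 75th percentile over all probes, without scaling or on the spike-in scale. Without scaling, miR-5100, miR-3963 and miR-3968 stood at -0.43, -0.26 and -0.20. After quantile normalization they stood at -0.14, 0 and -0.27, and only miR-3968 was called. The run AUCCCA, read on the mature strand and noticed after the values were seen, occurs in these 3 and in no other of the 301 members with a sequence (0.997%), and in 7 of 1679 mature miRNAs in the table (0.417%). The longer run of CGAAUCCC with a following A is shared by miR-5100 and miR-3968. miR-6366, the brightest miRNA of the control arrays, read 89.0 and 126 in NASH livers and was not called (difference -0.74). The other calls of lower outside the lists included miR-6412 (-0.91), miR-712-5p (-0.71), miR-1948-3p (-0.65), miR-6402 (-0.51) and miR-7a-1-3p (-0.27). Both NASH arrays were at the floor for miR-6412, miR-1948-3p, miR-6402 and miR-7a-1-3p, so the size and SE of these falls rest on the floor.

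**Figure D2:**
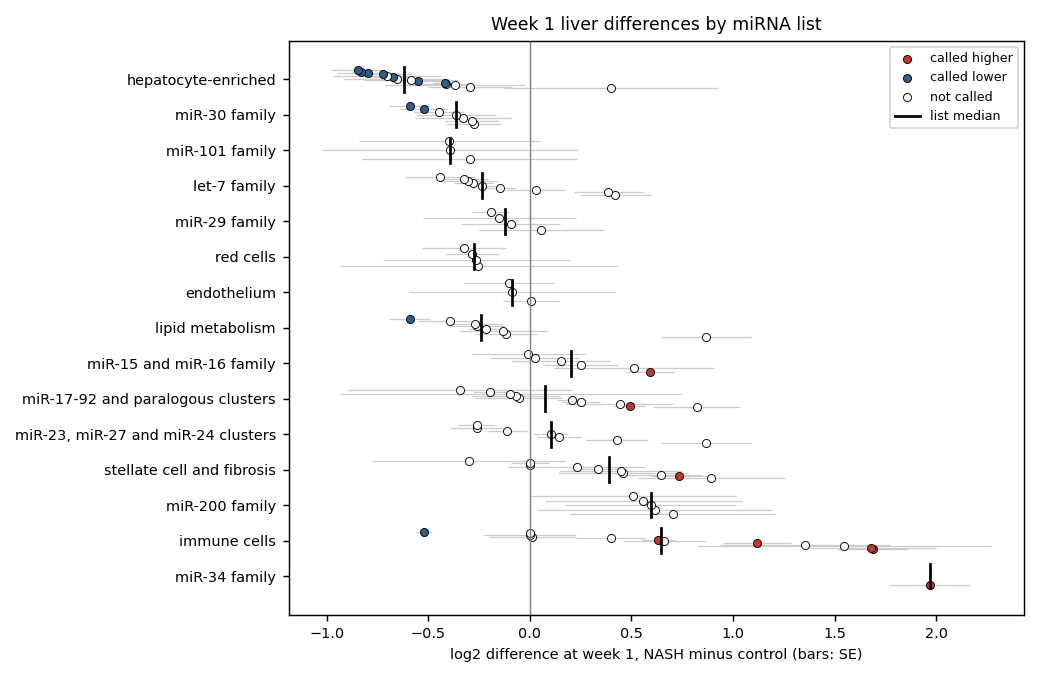
Log2 difference at week 1, NASH minus control, of each detected member of 15 miRNA lists, with SE bars. Filled points passed the test (red higher, blue lower), open points did not, and black bars mark list medians, which run from -0.62 for hepatocyte miRNAs to 0.65 for immune cell miRNAs and 1.97 for the single miR-34 member.

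The miR-30 family is abundant in epithelial cells. Of the 7 arms listed for it, all detected, 2 were called lower, against 5.41% of all 388 tested, and 5 not, with a median of -0.36. All 7 differences were negative under the reported scaling, whereas 5 of the 7 were positive without scaling (median 0.15). Outside the list, miR-30c-2-3p was called lower (-0.46, SE 0.08, limma adjusted p = 0.0178), miR-30b-3p stood at -0.10, and miR-30d-3p and miR-30c-1-3p lay at the floor on all 4 arrays. miR-30c-5p had 1.94 and 2.18 in NASH livers and 3.09 and 3.11 in control livers (difference -0.59, SE 0.10, limma adjusted p = 0.0132). miR-30e-3p, called at -0.52 (SE 0.12), is 1 edit from miR-30a-3p, which stood at -0.45 (SE 0.12) and missed the threshold (limma adjusted p = 0.0649), so the probes may share signal. miR-26a-5p was called at -0.31 (SE 0.07), but its difference was 0.20 without scaling and 0.05 on the spike-in scale. Its near relative miR-26b-5p, 2 edits away, stood at -0.37.

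Stellate cell and fibrosis miRNAs numbered 10, of which 1 was called higher, against 6.19% of all 388 tested, and 9 were not called. With so few members, 1 call is not read as a result about the list, whose median was 0.39. The called one was miR-214-3p, which is processed from Dnm3os and made by stellate cells and fibroblasts. Its scaled signal was 0.105 and 0.0943 in NASH livers and 0.0574 and 0.0623 in control livers. That 1.66-fold higher level (difference 0.73, SE 0.14, limma adjusted p = 0.0197) was not called when any 1 of the 4 arrays was left out. From the same transcript, miR-199a-5p had 0.236 and 0.186 in NASH livers and 0.118 and 0.152 in control livers (difference 0.64, SE 0.20, limma adjusted p = 0.0972). miR-199a-3p stood at 0.46 (SE 0.32), miR-199b-5p at 0.89 (SE 0.36), miR-221-3p at 0.34 (SE 0.11), and miR-21a-5p, often raised in fibrosis, at -0.30 (SE 0.47). The miR-29 list, whose members repress collagens, had 4 detected members and 0 calls, with a median of -0.12.

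Several families had no call at week 1. Among the 9 listed 5p arms of let-7 and miR-98, all detected, 0 were called (median -0.24, from -0.44 for let-7g-5p to 0.42 for let-7i-5p), and the median was 0.27 without scaling, 0.12 on the spike-in scale and 0.13 after quantile normalization. Without scaling the medians of the miR-101, miR-29, lipid, endothelial and red cell lists were positive too, between 0.12 and 0.42. The miR-101 list had 3 detected members, 0 called and a median of -0.39. Of 5 miR-200 members, found in bile duct epithelium, 0 were called (median 0.59), and NASH replicate 1 stood above the other 3 arrays, with miR-200b-3p at 0.343 and 0.144 in NASH livers and 0.121 and 0.178 in control livers. Red cell miRNAs gave 0 calls among 4 detected (median -0.27), and miR-451a read 4.12 and 3.89 in NASH livers and 3.59 and 6.43 in control livers. The endothelial list, led by miR-126a-3p (-0.10, SE 0.22), had 0 of 3 called and a median of -0.09, and the Dlk1-Dio3 cluster 0 of 6 with a median of 0.

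Of 10 detected miR-17-92 and paralogous members 1, miR-17-3p, was called higher, against 6.19% of all 388 tested (list median 0.08). Its signals were 0.0657 and 0.0610 in NASH livers and 0.0448 and 0.0453 in control livers, while its cluster neighbour miR-18a-5p stood at 0.82 (SE 0.21, limma adjusted p = 0.0555). The 7 members of the miR-23, miR-27 and miR-24 clusters gave 0 calls (median 0.10). Within them miR-27a-3p, which shares its seed with miR-27b-3p, had 1.64 and 1.37 in NASH livers and 0.721 and 0.931 in control livers (difference 0.87, SE 0.22, limma adjusted p = 0.0523), and miR-27b-3p stood at -0.26 (SE 0.13). Of 8 lipid metabolism miRNAs only miR-30c-5p was called (lower, list median -0.24), against 5.41% called lower of all 388 tested. Of the muscle list 0 were detected on 2 arrays, and the nervous system, islet and pancreas list had 1, miR-7a-5p, not called at -0.25.

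Among 9 members that were not called although they differed by more than 1 on the log2 scale, all were higher in NASH livers, and the nearest to the threshold was miR-2861 (limma adjusted p = 0.0556).

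The week 1 calls were then set beside the same diet difference at weeks 2 and 6, which rest on other arrays of the same fit. All weeks share the same estimate of spread for a miRNA, so calls at different weeks are not independent. A miRNA with a small spread is favoured at each week, and the shares over all tested are not a full baseline. Calls of higher made up 18.3% of the 388 tested at week 2 and 12.4% at week 6, and calls of lower 12.4% and 16% at those weeks. Of the 24 miRNAs called higher at week 1, 20 were called higher at week 2, 17 at week 6 and 17 at both. For the 21 called lower these counts were 19, 20 and 19. None was called in the opposite direction at a later week. The NASH arrays lay in column 2 at week 2 and column 4 at week 6, and the control arrays in columns 1 and 3. As at week 1, the NASH column was the one after the control column, so agreement between weeks does not tell diet from column. The median of those called higher was 0.97 at week 1, 1.06 at week 2 and 0.85 at week 6, and of those called lower -0.67, -0.90 and -0.98.

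Whether the week 1 difference itself departed from the mean of weeks 2 and 6 was tested in the same fit, and 16 miRNAs passed, 4.12% of 388. Of these, 9 were called at week 1, and for 5 all 4 week 1 arrays were at the floor. Week 1 liver lay on slide 2 and weeks 2 and 6 on slide 3, so week and slide cannot be told apart in this test. The count was 2 with all probes, no scaling, normexp or no detection filter, and 1 on the spike-in scale or with the replicate block within week. miR-34a-5p stood at 1.97 at week 1, 3.02 at week 2 and 3.58 at week 6, and the week 1 difference was below the later mean by 1.33 (SE 0.24, limma adjusted p = 0.0454). miR-342-3p stood at 1.69, 2.58 and 2.95 at those weeks, and miR-214-3p at 0.73, 1.97 and 1.99. Both differences from the later mean passed, at -1.08 (SE 0.21) and -1.25 (SE 0.17). The miR-223-3p difference, in contrast, was 1.68, 1.75 and 1.78 at weeks 1, 2 and 6, and its departure from the later mean was -0.09 (SE 0.39).

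Falls at week 1 were likewise smaller than later for miR-194-5p (-0.55, -1.15 and -1.48 at weeks 1, 2 and 6), miR-193a-3p (-0.42, -0.90 and -1.23), miR-3968 (-0.70, -1.18 and -1.17) and miR-212-3p (-0.52, -0.74 and -0.94), each with a departure that passed. miR-33-5p, which lies in an intron of Srebf2 and represses the cholesterol transporter Abca1, was not called at week 1. Its scaled signals then were 0.0447 and 0.0429 in NASH livers and 0.0408 and 0.0555 in control livers, so that the diets overlapped. The difference was -0.12 at week 1, -1.04 at week 2 and -1.10 at week 6, and the departure of 0.95 (SE 0.19) passed. miR-467b-3p went the other way over time, at 3.09, 0.79 and 0.13, with a departure of 2.63 (SE 0.51, limma adjusted p = 0.0454).

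**Figure D3:**
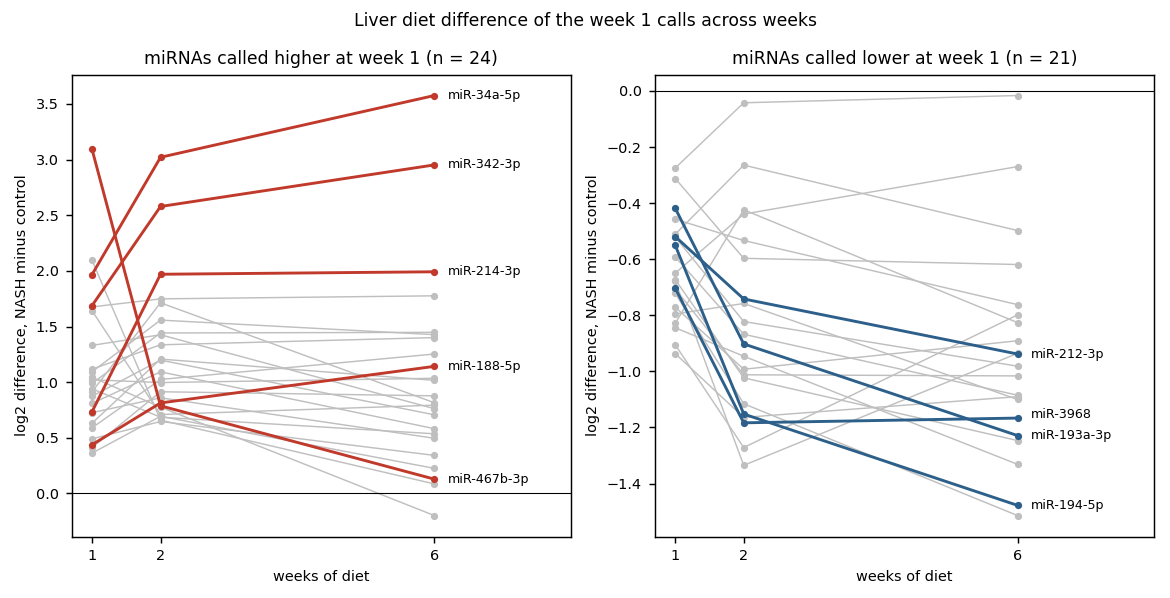
Log2 diet difference in liver, NASH minus control, at 1, 2 and 6 weeks of diet for the 24 miRNAs called higher (left) and the 21 called lower (right) at week 1; each line is 1 miRNA. Coloured, named lines are those whose week 1 difference departed from the mean of weeks 2 and 6 (5 higher and 4 lower); miR-34a-5p runs from 1.97 to 3.58 while miR-467b-3p runs from 3.09 to 0.13.

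In serum of week 1, where 426 miRNAs were tested on 2 NASH and 2 control arrays, 6 (1.41%) passed the limma fit for that tissue, with 45 at an unadjusted p under 0.05. These serum arrays lay on slide 1 and the week 1 liver arrays on slide 2, so tissue and slide cannot be told apart. The gap between the serum and the liver diet difference (serum minus liver) was tested in 1 fit over both tissues for the 293 miRNAs tested in each, and 23 passed (7.85%). In 8 of these all 4 serum arrays were at the floor, so their difference is the liver's alone. The other 15 included 6 of the 14 detected members of the hepatocyte list, each with a positive serum and a negative liver difference, of which the serum difference by itself was called for miR-192-5p and miR-122-3p. Scaled signals of miR-122-5p in serum were 15.4 and 19.0 with the NASH diet and 3.04 and 0.925 with the control diet. The serum difference of 3.35 (SE 0.99) was not called by itself, and the serum minus liver difference of 4.02 (SE 0.99, limma adjusted p = 0.0223) was.

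miR-192-5p showed the same contrast, at 2.84 and 4.13 in NASH serum and 0.688 and 0.497 in control serum. Its serum difference was 2.55 and its liver difference -0.59, and the gap of 3.14 (SE 0.45) had a limma adjusted p of 0.000798. miR-194-5p (1.68 in serum and -0.55 in liver) and miR-122-3p (2.14 and -0.70) passed too. In the other direction miR-214-3p read 0.136 and 0.123 in NASH serum and 0.431 and 0.515 in control serum, against its higher level in NASH liver. The gap was -2.60 (SE 0.39, limma adjusted p = 0.00107). miR-223-3p, higher in NASH liver, had 2.61 and 5.35 in NASH serum and 3.91 and 5.21 in control serum, which overlapped, and a gap of -1.95 (SE 0.55, limma adjusted p = 0.0477). For miR-34a-5p and miR-342-3p the serum differences were 1.18 and 1.08, and their gaps of -0.78 (SE 0.32) and -0.61 (SE 0.49) were not called.

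**Figure D4:**
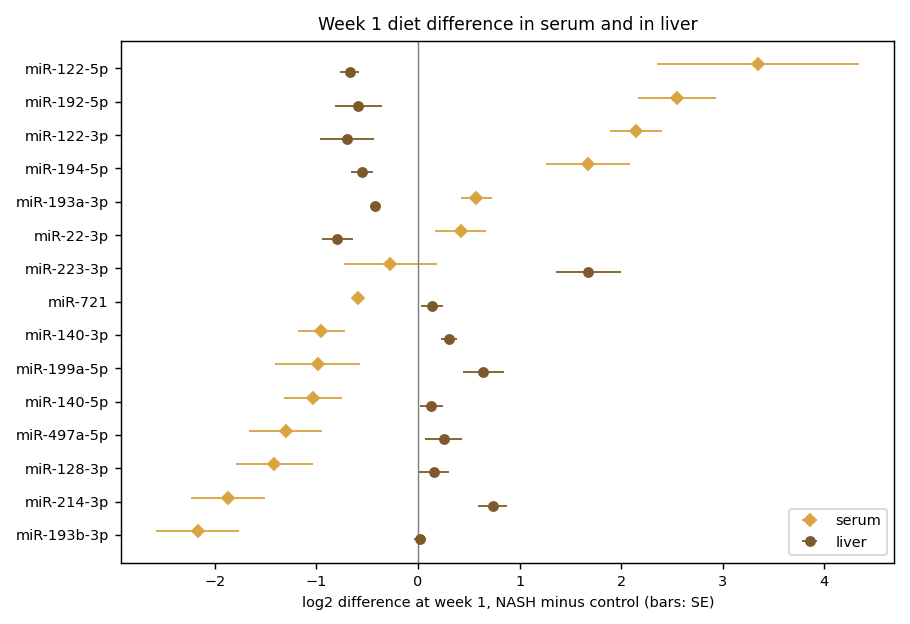
Log2 diet difference at week 1, NASH minus control, in serum (diamonds) and liver (circles) with SE bars, for the 15 miRNAs whose serum and liver differences departed from each other and that were above the floor on some serum array. The upper 6 miRNAs, from miR-122-5p to miR-22-3p, lie above 0 in serum and below 0 in liver, and miR-193b-3p has the lowest serum value, at -2.17.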

How the data were processed

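Agilent Feature Extraction 11.5 is named in the submitters' processing notes, and the deposited tables give an intensity for every spot, with the background-subtracted signal that the authors deposited and no normalization between arrays, per the file headers. Spots with outlier flags and control spots were left out and spots of a probe averaged. Scaling used an array's 75th percentile, taken over 299 probes that all 12 liver arrays had well above background (253 in serum). For the floor, the 5th percentile of an array's scaled signals marked above background was found and the median of the arrays taken, and 32.2% of the members' week 1 values lay at it. Their SE and p can be too small. Limma 3.58.1 (R 4.3.3, eBayes) was fitted to 6 diet-by-week groups, or to 12 groups over both tissues. miRNA names are those of the files, and 301 of the 349 members matched a RefSeq sequence. Named were the called miRNAs, up to 6 others per list, a fixed set, arms and seed relatives of these, and the greatest bounds and differences between weeks or tissues. The members and the 19 lists were chosen with earlier results of these data known. Both diets of a tissue and week shared a slide, and no slide block was used. The tested differences between weeks or tissues also lie between slides. Arrays limit the precision by their number.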

Additional observations from a re-analysis of the deposited data

Results flagged for a closer look

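Week 1 diet differences in liver that departed from the mean of weeks 2 and 6 are listed here because the difference itself passed the test (limma, adjusted p below 0.05), and the cause was not tested. Above the later mean were miR-467b-3p (2.63), miR-33-5p (0.95), miR-194-5p (0.76), miR-193a-3p (0.65), miR-3968 (0.47), miR-212-3p (0.32) and miR-7241-5p (0.18). Below it were miR-34a-5p (-1.33), miR-214-3p (-1.25), miR-299b-5p (-1.21), miR-342-3p (-1.08), miR-222-3p (-0.65), miR-342-5p (-0.57), miR-326-3p (-0.57) and miR-188-5p (-0.54), and by less miR-574-3p (-0.07). For 5 of the miRNAs in these lists, miR-222-3p and miR-342-5p among them, all 4 week 1 arrays were at the floor, so the value rests on the later weeks alone.

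Week 1 diet differences that departed between serum and liver, serum minus liver, passed the same kind of test. The 8 largest positive ones were those of miR-122-5p (4.02), miR-192-5p (3.14), miR-122-3p (2.85), miR-194-5p (2.23), miR-22-3p (1.22), miR-193a-3p (0.99), miR-193a-5p (0.83) and miR-192-3p (0.72). The 8 largest negative ones were those of miR-140-3p (-1.26), miR-7005-5p (-1.33), miR-497a-5p (-1.56), miR-128-3p (-1.57), miR-199a-5p (-1.63), miR-223-3p (-1.95), miR-193b-3p (-2.19) and miR-214-3p (-2.60). For miR-193a-5p, miR-192-3p and miR-7005-5p all 4 serum arrays were at the floor, so the value is the liver's alone with its sign turned.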

How the results depend on the processing

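The 45 calls at week 1 (24 higher, 21 lower) became 9 (9 and 0) with the 75th percentile over all probes, 14 (14 and 0) without scaling, 23 (21 and 2) with spike-in scaling, 21 (7 and 14) with normexp, 69 (27 and 42) with total signal, 69 (45 and 24) with the floor at 0.5 times its value, 25 (11 and 14) with the floor at 2 times its value, 9 (2 and 7) with no detection filter and 14 (8 and 6) from the 4 week 1 arrays alone, and quantile normalization gave 15 higher. Spike-in scaling was added after seeing the data, as were the list counts without single arrays. Normexp was run on median spot signals with an offset of 50. Leaving out 1 array gave 13 to 26 calls, 4 to 13 higher and 9 to 16 lower. The count of hepatocyte miRNAs called lower was 0, against 7 as reported, with all probes, no scaling and the spike-ins (2 to 5 without 1 array). Immune calls of higher were 0, 1 and 1 under these (2 to 3 without 1 array), and the stellate count was 0 under all 3 and without any 1 array. The median over 204 members was -0.04, and 0.13, 0.46, 0.31 and -0.20 with all probes, no scaling, spike-ins and normexp. Deviations of same-numbered arrays correlated at -0.46, 0.33 and 0.44 at weeks 1, 2 and 6, which does not settle whether the replicate numbers pair the arrays. On the 4 week 1 liver arrays replicate 1 lay in row 1 of the slide and replicate 2 in row 2. The reported fit used no replicate block. A replicate block within week gave 12 calls (4 and 8) and a block across weeks 48. The count of 16 differences between weeks became 2 with all probes, no scaling, normexp or no filter, 1 with the spike-ins or the block within week, 6 with probe means, the higher floor or arrays all detected, and 7 with the block across weeks (4 to 40 without 1 array). The count of 23 between tissues became 12 with all probes or normexp, 9 with arrays all detected, 15 with a trended robust fit and 43 with the replicate block (13 to 29 without 1 array). Signs turned with normexp for miR-125a-3p (-0.087), miR-1306-3p (-0.0095), miR-132-3p (-0.083), miR-17-3p (-0.12), miR-181a-5p (-0.084), miR-188-5p (-0.084), miR-3082-5p (-0.048), miR-500-3p (-0.0086), miR-5121 (-0.064), miR-5622-3p (-0.066) and miR-6378 (-0.036), without scaling for miR-193a-3p (0.089), miR-26a-5p (0.20) and miR-30c-2-3p (0.051), and with the spike-ins for miR-26a-5p (0.048). Between weeks they turned for miR-574-3p with all probes (0.045), no scaling (0.083), quantile (0.036), spike-ins (0.039) and normexp (0.025), and with total signal for miR-7241-5p (-0.81). Between tissues they turned with normexp for miR-1306-3p (0.0095), miR-17-3p (0.12) and miR-181a-5p (0.084), and without scaling for miR-30c-2-3p (-0.051). The causes were not tested. Signals near background limit the dim miRNAs.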
